A study of Mus musculus with 4 samples.

Results

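The genes described here encode the proteins of the cytosolic ribosome. They are the protein-coding genes in the deposited tables whose symbol is Rpl or Rps, a number and at most 1 further letter, together with Rplp0, Rplp1, Rplp2, Rpsa, Rpl22l1 and Rpl36al. This naming rule found 82 of 54532 genes, 51 of the large and 31 of the small ribosomal subunit, and it used no measured value. Of the 82, 6 are paralogs of another gene on the list (Rpl3l, Rpl10l, Rpl22l1, Rpl36al, Rpl39l and Rps27l). RNA sequencing counts were available for 4 libraries from Dll1 mcherry+ tumours of C57BL/6 mice carrying MMTV-PyMT, a transgene whose promoter drives a viral oncogene in mammary epithelium. Irradiated A and B came from tumours given 6 Gy of targeted radiation, labelled at day 6, and unirradiated A and B from tumours given none. The titles of all 4 libraries carry the same 6-day mark. The sample type is given as primary mouse breast cancer-associated fibroblasts (CAFs), which an antibody to PDGFRa served to detect after enzymatic digestion of the tumours, and the sequenced fraction is not stated. Nothing in the labels says that A and B are separate animals, so each p-value is set against the spread of these libraries alone, and that spread may be technical.

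Irradiated A and B held 15817969 and 23763830 counts, and unirradiated A and B 17569515 and 13011489. The summed level of 10 epithelial markers was 8176 and 8509 CPM (counts scaled to a common library size with edgeR's TMM factors) in irradiated libraries and 8935 and 8948 in unirradiated libraries. That of 10 fibroblast markers was 1661 and 1678 CPM in irradiated and 536 and 500 CPM in unirradiated libraries. Epithelial transcripts thus exceeded fibroblast transcripts in every library, which goes against the labelled cell type, and the libraries are called by their treatment below. In such bulk samples, fewer cells of a type and less RNA per cell cannot be told apart.

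A cytosolic ribosome is built from ribosomal RNA and a fixed set of proteins, of which most are present as a single copy, so their genes are usually expressed together and at high levels. The large subunit joins amino acids and the small subunit reads the mRNA. In mammals the mRNAs of these proteins typically begin with a C inside a run of pyrimidines, the terminal oligopyrimidine tract, through which mTOR signalling and LARP1 control their translation. Most of the genes also have many processed pseudogenes, so short reads can match several places.

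The starts of 10 members are shown because the tract is known from mRNAs of this family. By the definition below, 29 of the 62 members with a RefSeq start had it. All lines but the last pair were chosen among such members. Each line runs 5′ to 3′ on the gene's strand, from 10 bases before a RefSeq transcription start to 20 bases from it (GRCm38.p6). Capitals mark a run of at least 5 bases that opens with C and holds only C and T, beginning within 5 bases of the start on either side. Among genes with such a run at a start within 100 bases of the deposited gene start, the first 4 had the largest and the next 4 the smallest falls on the TMM scale, and the last pair are Rpl22 and its paralog.
Rps27l (chr9:66946076-66946105, + strand): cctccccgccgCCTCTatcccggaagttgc
Rpl28 (chr7:4792955-4792984, + strand): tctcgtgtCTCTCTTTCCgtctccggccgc
Rpl31 (chr1:39367841-39367870, + strand): tcctcgCCTCCCCgtgacccggaagttgta
Rpl35a (chr16:33056472-33056501, + strand): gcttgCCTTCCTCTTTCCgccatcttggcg
Rpl34 (chr3:130730379-130730408, - strand): tccctgacgtaCTTCCTgtccggcgccgtc
Rpl27a (chr7:109519185-109519214, + strand): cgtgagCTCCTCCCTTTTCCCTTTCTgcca
Rps6 (chr4:86857348-86857377, - strand): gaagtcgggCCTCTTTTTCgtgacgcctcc
Rps15a (chr7:118116128-118116157, - strand): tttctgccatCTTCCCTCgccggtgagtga
Rpl22 (chr4:152325716-152325745, + strand): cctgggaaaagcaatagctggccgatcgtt
Rpl22l1 (chr3:28805498-28805527, + strand): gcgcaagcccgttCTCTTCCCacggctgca
Of the 82 members, 62 had a start in the RefSeq table, and 29 of these (46.8%) had the run at a start. Over all genes with a RefSeq start the run was found in 21.2%. Counted by start window, 41.9% of 74 member windows and 18.3% of all 32851 windows held it. The Rpl22 window shown has no such run, which says only that these letters are not at this annotated start. The median log2 fold change was -0.45 over the 29 members with the run and -0.46 over the 31 tested members without it. The run was sought only within 5 bases of annotated starts, so members without it may still carry the tract. These medians therefore do not compare mRNAs with and without the tract.

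Ribosomal protein transcripts took a smaller share of the irradiated libraries. The 82 genes held 5.15% and 5.44% of all counts in irradiated A and B, against 6.53% and 6.50% in unirradiated A and B. Both irradiated libraries lay below both unirradiated libraries. The mean share was 5.29% ± 0.199 in irradiated and 6.51% ± 0.0187 in unirradiated libraries (SD, n = 2 each), a difference of -1.22 percentage points. Large subunit genes held 3.16% ± 0.115 in irradiated and 3.92% ± 0.00774 in unirradiated libraries. Small subunit genes held 2.13% ± 0.0844 in irradiated and 2.59% ± 0.0110 in unirradiated libraries. An exact permutation test of such a value over 2 libraries a group has a smallest two-sided p of 0.333. The mitochondrial chromosome, which shares the same total, held 3.03% and 2.97% of counts in irradiated and 10.6% and 10.7% in unirradiated libraries. Relative to protein-coding genes outside that chromosome, members held 5.39% and 5.68% in irradiated and 7.48% and 7.46% in unirradiated libraries, a mean difference of -1.94 percentage points.

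**Figure D1:**
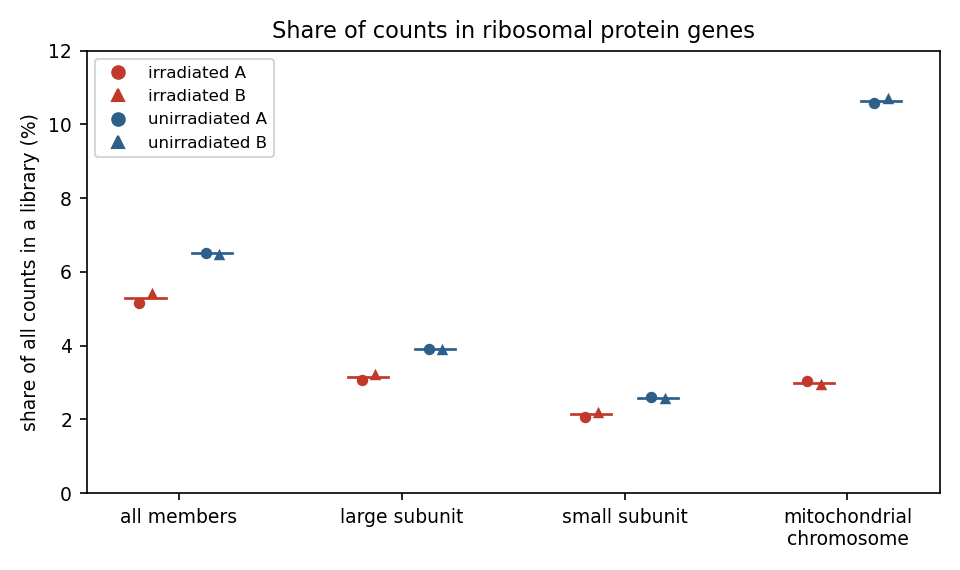
Share of all counts of a library (%, vertical axis) in all 82 ribosomal protein genes, in those of each subunit and on the mitochondrial chromosome, with a point per library and a line at the mean of the 2 libraries of a group. For all members the irradiated libraries sit at 5.15% and 5.44% and the unirradiated libraries at 6.53% and 6.50%, and the mitochondrial share differs in the same direction.

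Nearly the whole list moved the same way, by a modest amount. Of 80 members with enough counts to test, 77 were lower and 0 higher in irradiated than in unirradiated libraries by edgeR's quasi-likelihood test at a Benjamini-Hochberg adjusted p under 0.05, and 61 were lower and 7 higher once a trend of the fold change with gene length and GC content was removed across all genes. Before that trend was removed, 32.5% of all 15961 tested genes were lower and 33.9% higher, 66.4% in all. Afterwards 35.4% of all genes were lower and 28.5% higher. The median log2 fold change of the 80 members was -0.45, with quartiles of -0.57 and -0.36, against a median of -0.0042 over all tested genes. In 78 members both irradiated libraries lay below both unirradiated libraries, which held for 40.9% of all tested genes, and no member had both irradiated libraries above. Tested against a change of 1.5-fold, 13 members were lower, where 11.0% of all tested genes were. No member was higher at an unadjusted p under 0.05, nor with DESeq2, which called 76 lower and 25.3% of all tested genes.

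The counts and medians of both subunits were close. Among the members other than paralogs, 45 of 46 tested large subunit genes were lower (median log2 fold change -0.44). Of 30 tested small subunit genes 29 were lower (median -0.46). Of 298 ribosomal protein pseudogenes named as such, 91 were tested. Of these, 44 were lower and 0 higher, where 32.5% of all tested genes were lower and 33.9% higher. Some of their counts may be reads of members, which was not tested. Pseudogenes held 0.0298% ± 0.00155 of counts in irradiated and 0.0411% ± 0.00146 in unirradiated libraries. Within the irradiated pair, B was above A in 77 of the 80 members, with a median difference of 0.087 on the log2 CPM scale, where the median of all tested genes was 0.0069. Within the unirradiated pair, B was above A in 42 of 80, with a median of 0.00092.

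The size of the difference, and for some members its direction, depended on what the level was relative to. The fit without the length and GC trend gave a median of -0.23 over the 80 members. With library totals and no TMM factor, 72 members were lower and 1 higher, with a median of -0.32, while the median of all genes was 0.13. In that fit 25.2% of all genes were lower and 42.0% higher. On the TPM scale (counts per transcript length, relative to their sum in the library), the ratio of group means was below 1 for 50 members and above 1 for 30, with a median log2 ratio of -0.03 and a median over all tested genes of 0.41. Mitochondrial transcripts made up 4.76% of that sum in irradiated and 13.6% in unirradiated libraries, and without them 68 members had a ratio below 1 and 12 above. The members' median minus that of all tested genes was -0.45 with TMM, -0.30 without a filter, -0.21 with the coding length and GC trend removed and -0.17 with the gene length and GC trend removed. Library totals and TPM shift all genes nearly alike, so they leave this difference at -0.45 by construction. The fold changes below are on the TMM scale.

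**Figure D2:**
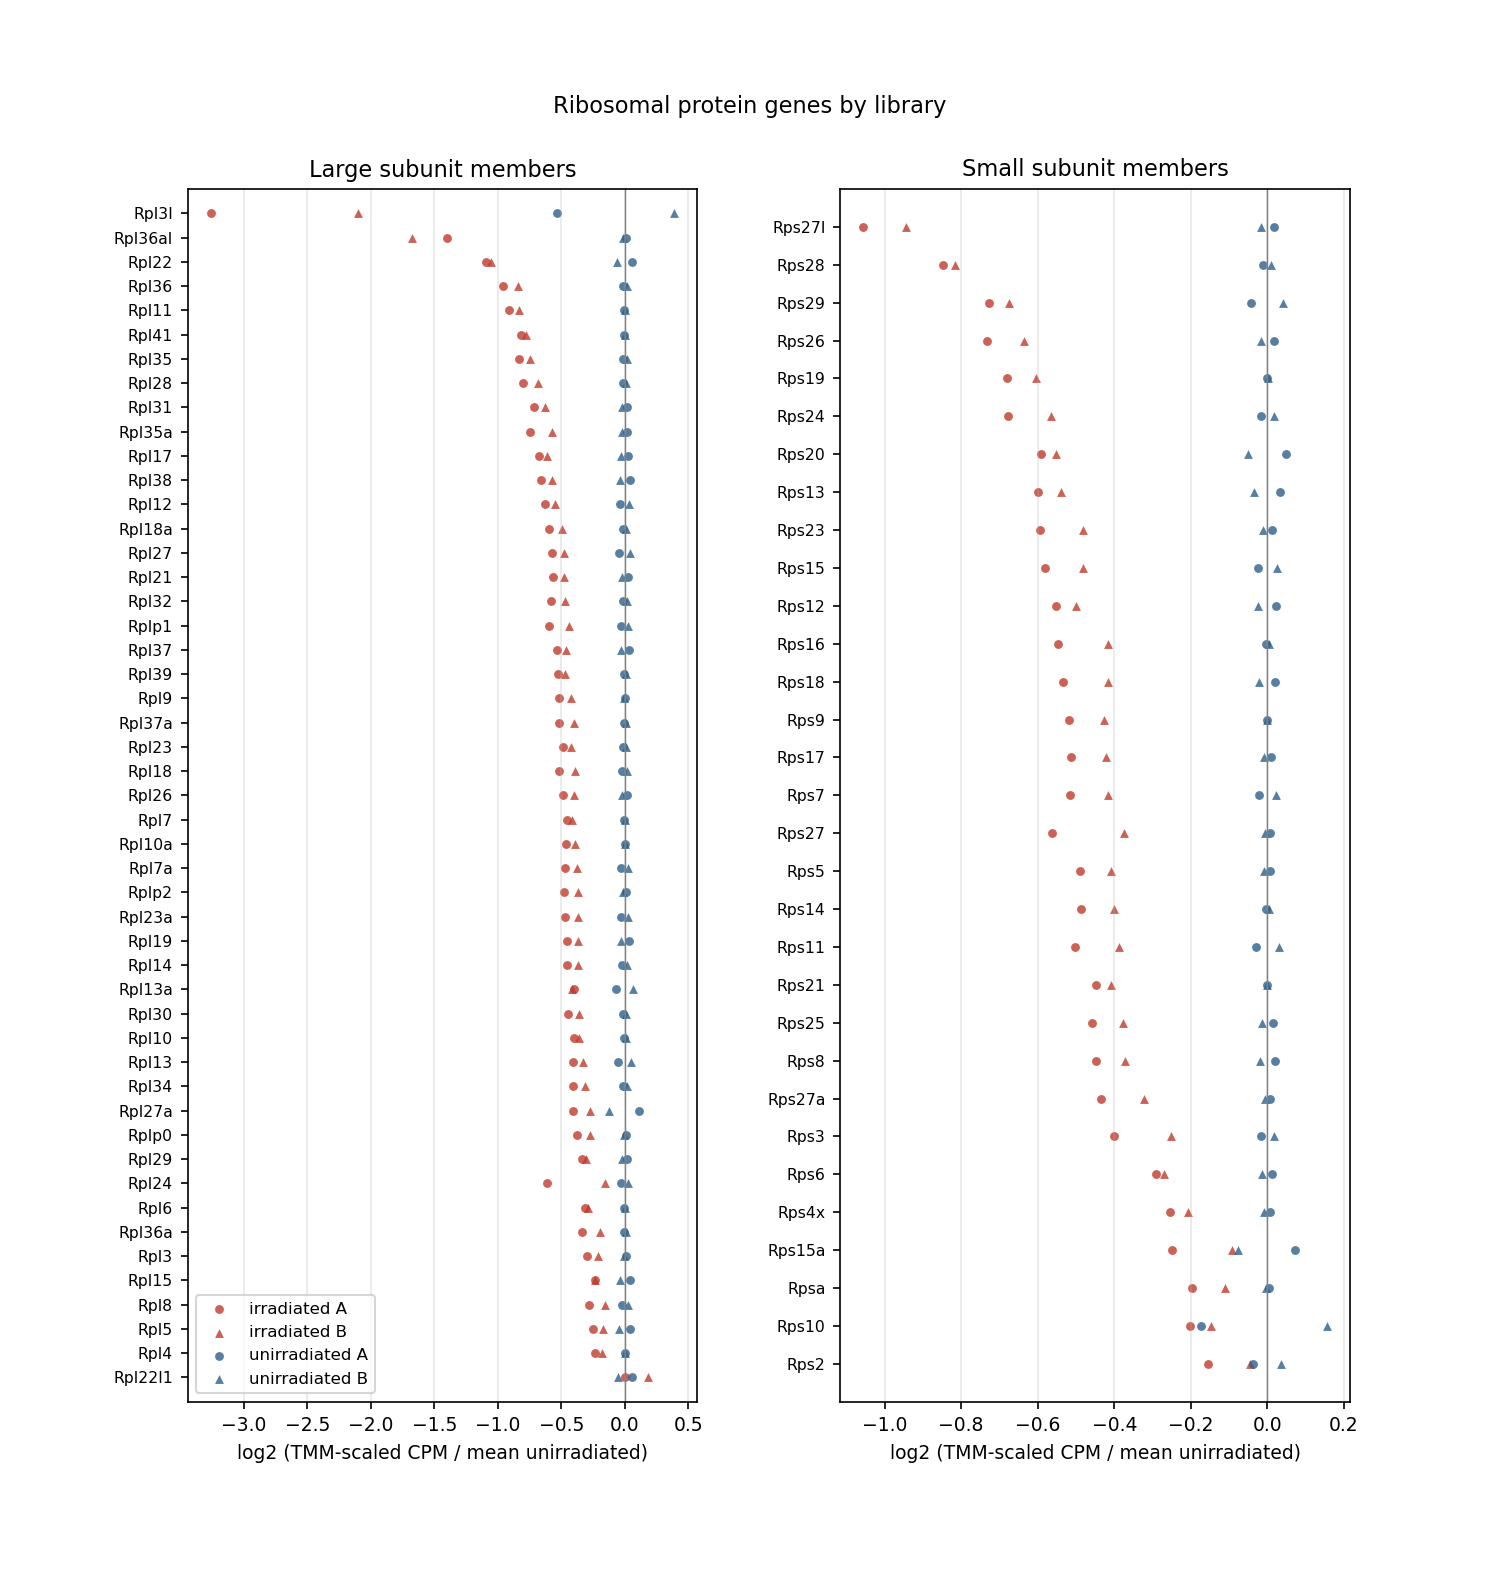
Each of the 80 tested ribosomal protein genes (rows, ordered by fold change) in each library, as the log2 ratio of its TMM-scaled CPM to the unirradiated mean (horizontal axis), with a point per library. Irradiated points lie to the left of unirradiated points in 78 rows, by a median log2 fold change of -0.45, the Rpl22l1 and Rps10 rows overlap, and 7 members are called higher instead once the length and GC trend is removed.

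Per length of 1 annotated transcript a gene, the most abundant members were Rplp1, Rpl41, Rps2, Rps12, Rps14 and Rps18. This order depends on the transcript chosen, which for Rps20 had 3706 bases and a coding length of 357. Windows shared with other transcripts, 90.1% for Rps12 and 86.7% for Rps18, limit it too. In CPM the highest member was Rplp0, averaging 1917 in irradiated and 2397 in unirradiated libraries. Rplp1, a stalk protein, had 1154 and 1288 CPM in irradiated and 1714 and 1780 CPM in unirradiated libraries (log2 fold change -0.52, but 0.15 and called higher with the length and GC trend removed). Rpl41, among the smallest proteins known, had 649 and 665 CPM in irradiated and 1139 and 1147 CPM in unirradiated libraries (-0.80, but 0.06 and not called with the coding length and GC trend removed). Rps2, near the mRNA entry channel, had 1784 and 1924 CPM in irradiated and 1937 and 2037 CPM in unirradiated libraries. The Rps2 groups did not overlap but nearly met, and its log2 fold change of -0.10 (SE 0.036, adjusted p = 0.0141, edgeR's quasi-likelihood test) was the smallest of any member called. It was 0.16, and called higher, with the length and GC trend removed, and 0.04 and not called with library totals. Nor was Rps2 called without a filter (-0.04), with the coding length and GC trend removed (0.0013), without irradiated A (-0.03) or without unirradiated B (-0.06). Rps12 (-0.53), Rps14 (-0.44), whose human counterpart is lost in the 5q- syndrome, and Rps18 (-0.47) lay near the median of the list. With the length and GC trend removed they were at -0.35, -0.10 and -0.33 in that order, and with the coding length and GC trend removed at -0.31, -0.16 and -0.21, called lower in both fits.

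On the TMM scale the largest falls among well-counted members were in Rpl22, Rps27l, Rpl36, Rpl11, Rps28 and Rpl41. Rpl22, an RNA-binding large subunit protein, had 224 and 230 CPM in irradiated and 498 and 459 CPM in unirradiated libraries. The groups were far apart, with a log2 fold change of -1.08 (SE 0.044, adjusted p = 1.77e-31, edgeR's quasi-likelihood test), or 52.6% lower. Rps27l, known in mouse and human cells as a target gene of p53, had 140 and 151 CPM in irradiated and 294 and 287 CPM in unirradiated libraries. That was 49.9% lower (log2 fold change -0.997, SE 0.048, adjusted p = 5.72e-28, edgeR's quasi-likelihood test). Rpl36, a large subunit protein, had 300 and 325 CPM in irradiated and 576 and 589 CPM in unirradiated libraries (-0.90). Rps28, a small subunit protein near the mRNA exit, had 293 and 299.6 CPM in irradiated and 524 and 531 CPM in unirradiated libraries (-0.83). In each of these genes the groups stood far apart and the libraries of a group close together. In TPM, Rpl22 averaged 997 in irradiated and 1571 in unirradiated libraries, and Rpl11 1320 in irradiated and 1808 in unirradiated libraries. Over the 16 alternative fits, which do not include TPM, Rpl22 stayed between -1.13 and -0.91 and Rpl11 between -0.92 and -0.70. The other genes moved more over these fits. With the length and GC trend removed Rps27l was at -0.57, Rpl36 at -0.23 and Rps28 at -0.52, and with the coding length and GC trend removed at -0.72, -0.41 and -0.28.

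Of 5 paralogs with any count, 4 had counts per partner count that did not overlap between groups, 1 higher and 3 lower in irradiated libraries. Non-overlap is common with 2 libraries a group. Over all tested genes, scaled levels did not overlap with irradiated lower in 40.9% and irradiated higher in 41.5%. Rpl22l1, whose expression Rpl22 restrains in mice, was the single tested member with a positive log2 fold change. It had 109.6 and 124 CPM in irradiated and 113 and 105 CPM in unirradiated libraries, so the groups overlapped (log2 fold change 0.10, SE 0.057, adjusted p = 0.126, edgeR's quasi-likelihood test). Rpl22l1 was called higher in 5 of 16 alternative fits, at 0.23 with library totals and 0.19 without irradiated A among them. Set against its partner, Rpl22l1 had 48.9 and 53.8 counts per 100 Rpl22 counts in irradiated and 22.7 and 22.9 in unirradiated libraries. This ratio, which needs no scaling between libraries, was 2.25 times as high in irradiated libraries, and its groups did not overlap. The 2 coding sequences were 70.2% identical and shared no identical stretch over 26 bases. Of the 50-base windows of the Rpl22l1 transcript, 65.6% also occurred in another annotated transcript, mostly of Gm15421, against 24.5% for Rpl22.

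Rps27l moved the other way relative to Rps27. It had 49.3 and 46.8 counts per 100 Rps27 counts in irradiated and 70.0 and 69.0 in unirradiated libraries. Rps27 itself was lower, with 284 and 323 CPM in irradiated and 420 and 417 CPM in unirradiated libraries (-0.46, but -0.06 with the length and -0.05 with the coding length and GC trend removed, and called in neither). Nearly all Rps27 windows (98.6%) recurred in Rps27rt, a near copy, so the level of Rps27 is uncertain, whereas 22.4% of Rps27l windows recurred elsewhere.

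The remaining paralogs had few counts. Rpl36al had 35 and 43 counts in irradiated and 94 and 68 counts in unirradiated libraries, with no overlap after scaling (log2 fold change -1.56). Its partner Rpl36a had 373 and 412 CPM in irradiated and 469 and 474 CPM in unirradiated libraries (-0.26, but -0.07 with the length and -0.04 with the coding length and GC trend removed, and called in neither). As a ratio, Rpl36al per 100 Rpl36a counts was 0.565 and 0.421 in irradiated and 1.20 and 1.16 in unirradiated libraries. The annotation of Gm49383, which itself had 0 counts in all libraries, covers 63.1% of the Rpl36al exons. Rpl3l, known for expression in heart and skeletal muscle, had 3 and 10 counts in irradiated and 20 and 28 counts in unirradiated libraries. Its fitted log2 fold change was -2.37 and lay between -3.13, without irradiated B, and -1.90, without unirradiated B, over the alternative fits. After scaling, the irradiated over unirradiated ratio of the summed Rpl3l counts was 0.190, with a 95% exact binomial interval of 0.0947 to 0.357 that covers counting error only. Rpl3, its abundant partner, had a log2 fold change of -0.25. Rpl39l and Rpl10l, known from the testis, had at most 4 counts and 0 counts in any library. The Rpl39l groups overlapped, with 0.0212 and 0.0275 counts per 100 Rpl39 counts in irradiated and 0 and 0.0791 in unirradiated libraries. For Rpl10l, 0 counts allow up to 0.180 and 0.121 CPM in irradiated and 0.179 and 0.243 CPM in unirradiated libraries, taking 3 counts as the limit. Their partners Rpl39 (-0.50, but 0.0065 and not called with the coding length and GC trend removed) and Rpl10 (-0.38) were lower.

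**Figure D3:**
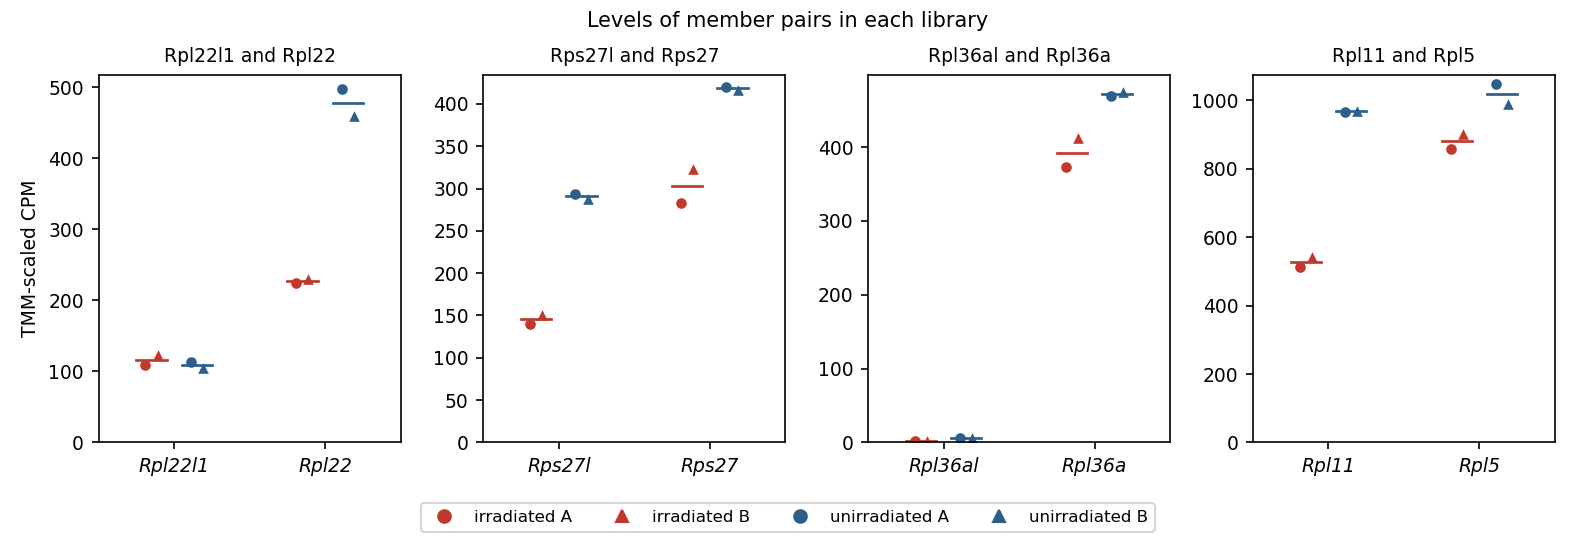
TMM-scaled CPM (vertical axes, each from 0) of Rpl22l1 and Rpl22, Rps27l and Rps27, Rpl36al and Rpl36a, and Rpl11 and Rpl5 in each library, with a line at the mean of a group. Rpl22 falls to 224 and 230 CPM in irradiated libraries, against 498 and 459 CPM in unirradiated libraries, while Rpl22l1 overlaps between groups, and the Rpl11 groups stand further apart than the Rpl5 groups.

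Rpl5 and Rpl11, which bind 5S ribosomal RNA together and can inhibit Mdm2 when free of the ribosome, differed in how far they moved. Rpl11 had 514 and 544 CPM in irradiated and 967 and 970.5 CPM in unirradiated libraries. Rpl5 had 857 and 903 CPM in irradiated and 1049 and 990.4 CPM in unirradiated libraries. Both were lower, Rpl11 with a log2 fold change of -0.87 (SE 0.039) and Rpl5 with one of -0.21 (SE 0.038), with adjusted p of 1.39e-29 and 2.38e-06 (edgeR's quasi-likelihood test). Rpl5 was at -0.08 and not called with library totals, and at -0.37 and -0.42 with the length and the coding length trends removed. There were 60.0 and 60.2 Rpl11 counts per 100 Rpl5 counts in irradiated and 92.2 and 98.0 in unirradiated libraries, without overlap. Windows shared with other transcripts made up 62.2% of Rpl11 and 93.8% of Rpl5, and reads lost to such copies were not measured.

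The stalk, which recruits translation factors to the ribosome, was lower in all of its 3 members on the TMM scale, and Rplp1 was called higher once the length and GC trend was removed. Rplp0, its base, had 1851 and 1984 CPM in irradiated and 2411 and 2383 CPM in unirradiated libraries (-0.32, but -0.05 and not called with the length and GC trend removed). Rplp2 had 580 and 627 CPM in irradiated and 814 and 803 CPM in unirradiated libraries (-0.42, but -0.01 and not called with the coding length and GC trend removed). Counts of the dimer partners per count of the base did not overlap between groups: Rplp1 per 100 Rplp0 counts was 62.3 and 64.9 in irradiated and 71.1 and 74.7 in unirradiated libraries, and Rplp2 was 31.3 and 31.6 in irradiated and 33.8 and 33.7 in unirradiated libraries.

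Members known for disease or for roles outside bulk translation spread over the same range. Rps19 and Rpl35a, which with Rpl5 and Rpl11 are mutated in Diamond-Blackfan anaemia, had log2 fold changes of -0.64 and -0.65. Rps19 had 498 and 524 CPM in irradiated and 797.5 and 798 CPM in unirradiated libraries, and Rpl35a 289.5 and 326 CPM in irradiated and 492 and 478 CPM in unirradiated libraries. With the coding length and GC trend removed they were at -0.29 and -0.41. Rpl38, needed for translation of Hox mRNAs in the mouse embryo, was lower (-0.61), although it was not called with the length and GC trend removed (0.03) or the coding length and GC trend removed (-0.02). Rpl10a (-0.43) and Rps25 (-0.42), both linked to internal ribosome entry, were lower as well. Rpl13a, part of an interferon-induced complex in human cells, was lower (-0.40), with 44.0 and 43.6 CPM in irradiated and 55.6 and 60.8 CPM in unirradiated libraries. Rps3, which also has a role in DNA repair, was lower (-0.32). Rps6, the substrate of the S6 kinases, had 718 and 729 CPM in irradiated and 886 and 870.1 CPM in unirradiated libraries (-0.28, but -0.03 and not called with the length and GC trend removed). Rpsa, also known as the laminin receptor precursor, had 1439 and 1526 CPM in irradiated and 1652 and 1644 CPM in unirradiated libraries (-0.15). It was not called with library totals (-0.02), without a filter (-0.09) or with the coding length and GC trend removed (-0.06).

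Besides Rpl22l1, 2 members missed the threshold, and both were thinly counted. Rpl24 had 37 and 76 counts in irradiated and 56 and 43 counts in unirradiated libraries (log2 fold change -0.32, SE 0.27, adjusted p = 0.293, edgeR's quasi-likelihood test). Rps10 had 146 and 226 counts in irradiated and 150 and 139 counts in unirradiated libraries (-0.15, SE 0.16, adjusted p = 0.408, same test), and its scaled groups overlapped. The exons of another annotated gene covered 71.5% of Rpl24 and 91.6% of Rps10, and these neighbours (Gm28037 and a RPS10-NUDT3 readthrough) had at most 1 count in any library. The same held for 59.3% of Rpl13a, overlapped by Gm45713.

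Within the list, the fall was compared with the length of the protein. Over 73 tested members, leaving out the paralogs and the overlapped Rpl24, Rps10 and Rpl13a, the log2 fold change rose with coding length, with Pearson's r of 0.59 and Spearman's rho of 0.59. Over all 80 tested members r was 0.12 and rho 0.52. The 73 include other members overlapped by exons of another gene, such as Rpl35 (68.3%), Rpl23a (55.4%) and Rpl5 (46.6%). These are descriptions across genes of the same 4 libraries, which are not independent replicates. The r was 0.55 over 44 large subunit genes, 0.75 over 29 small subunit genes and 0.57 without the 2 genes farthest from the median length. The 25 shortest members had a median log2 fold change of -0.53 and the 25 longest one of -0.37. Other measures were compared over the same 73 members. The r was 0.44 with mean CPM, 0.25 with transcript length and 0.16 with the deposited gene length. With the GC content of the transcript r was -0.15.

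Other protein-coding genes showed a length relation too, with a different offset. Under 300 coding bases the median was -0.50 over 9 members and -0.46 over 285 other genes. From 300 to under 450 bases it was -0.52 over 27 members and -0.40 over 668 other genes. From 450 to under 600 bases the medians were -0.47 over 17 members and -0.13 over 818 other genes. From 600 to under 900 bases they were -0.32 over 17 members and -0.08 over 1910 other genes, and from 900 to under 1500 bases -0.25 over 3 members and 0.01 over 3869 other genes. The shortest members thus had about the same median as other genes of their length, and longer members had a lower one. When the trend with coding length and GC content was removed, 65 members were lower and 1 higher, with a median of -0.29, and Rpl41, the shortest member, moved to 0.06. The part of length in the members' fold changes was not tested beyond these values.

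**Figure D4:**
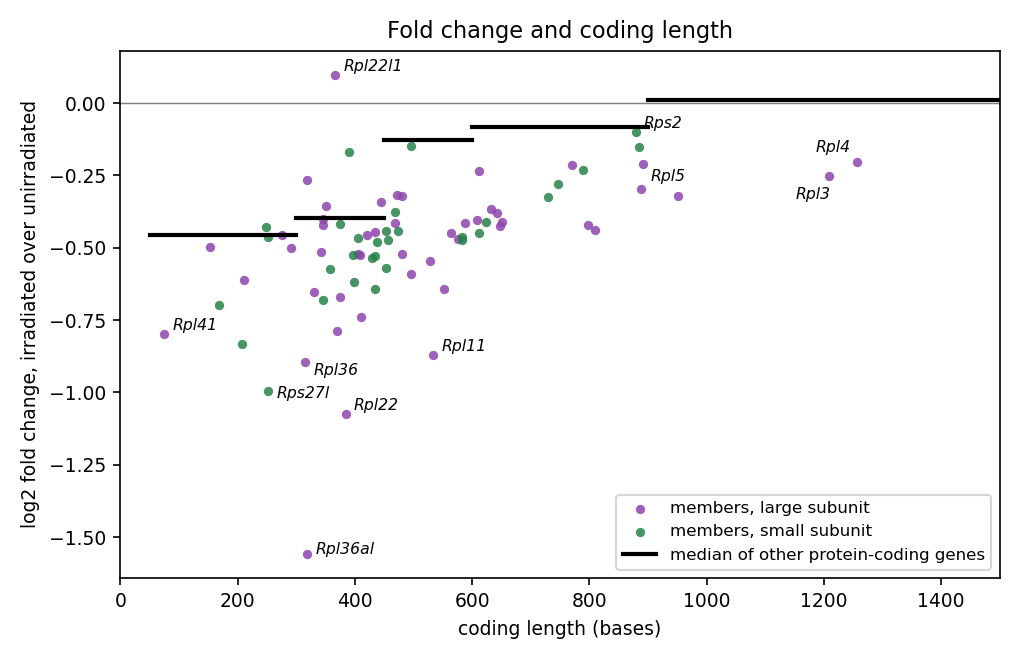
Log2 fold change, irradiated over unirradiated (vertical axis), against coding length in bases (horizontal axis) for tested ribosomal protein genes, with lines at the median of other protein-coding genes in each length bin. Members rise with length (r = 0.59 over 73 members) and lie below the lines from 450 bases on, and Rpl3l, at -2.37, was left out of the plot.

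Ribosome components under other symbols were counted apart. Of 6 such genes 4 were lower and 1 higher, where 32.5% of all tested genes were lower and 33.9% higher. Fau, a ubiquitin-like fusion to a small subunit protein, averaged 475 ± 26.8 CPM in irradiated and 760.5 ± 27.4 CPM in unirradiated libraries (SD, n = 2 each, -0.68). Rps27rt (-0.52) and Rps3a1 (-0.09) were also lower. Rpl7l1, a paralog of Rpl7, was higher (0.17), and Rack1, a scaffold on the small subunit, had -0.04 and was not called (adjusted p = 0.356, edgeR's quasi-likelihood test). The 4 lower calls became 2 with library totals, and 2 without irradiated A, unirradiated A or unirradiated B.

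Ribosome assembly factors were listed as well. Of 65 such genes 31 were higher and 14 lower, at a median of 0.12 on the log2 scale, against 33.9% higher and 32.5% lower over all tested genes. But 13 were higher and 22 lower once the trend with coding length and GC content was removed, where 38.8% of all genes were lower. Tsr1, which matures the small subunit, averaged 63.6 ± 0.154 CPM in irradiated and 32.9 ± 1.60 CPM in unirradiated libraries (SD, n = 2 each, 0.95). Utp20 (0.83), of the small subunit processome, and Mdn1 (0.65), a very large ATPase that remodels the large subunit precursor, were higher, and Nop10 (-0.76), a small H/ACA RNP protein, was lower.

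Genes for RNA polymerase I transcription, which makes ribosomal RNA, had 5 higher and 6 lower of 15, near the shares of 33.9% and 32.5% over all tested genes. Polr1a, the largest subunit, averaged 68.8 ± 2.28 CPM in irradiated and 49.9 ± 4.14 CPM in unirradiated libraries (SD, n = 2 each, 0.45). Polr1b, the second largest subunit, was higher (0.36), and Taf1d (-0.40) and Cd3eap (-0.33) were lower. With DESeq2, and likewise without irradiated A, 3 were higher and 3 lower, and 3 were lower without irradiated B or unirradiated B. Of 27 genes that control ribosomal protein synthesis or translation, 9 were higher and 11 lower, again near those shares. Eif4ebp1, a translation repressor under mTOR, averaged 52.2 ± 3.45 CPM in irradiated and 91.5 ± 2.80 CPM in unirradiated libraries (-0.80). Rragd (-0.77), a GTPase that signals amino acids to mTOR, Rps6kb2 (-0.69), an S6 kinase, and Pdcd4 (-0.68), a translation inhibitor, were lower too. With the length and GC trend removed 3 genes of this list were higher, where 28.5% of all genes were. With library totals 14 were higher, where 42.0% of all genes were.

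Several cell type marker lists differed between groups alongside the ribosomal protein genes. Over all tested genes 33.9% were higher and 32.5% lower, to be set beside each count of calls here. Of the fibroblast markers 8 of 10 were higher and 0 lower. All 8 macrophage markers were higher, with summed levels of 588 and 592 CPM in irradiated and 205 and 212 CPM in unirradiated libraries, as were all 5 endothelial markers (137 and 125 CPM in irradiated, 51.5 and 53.4 CPM in unirradiated libraries). Of 10 epithelial markers 3 were higher and 5 lower. T and NK markers, 4 of 5 tested lower, summed to 3.73 and 3.67 CPM in irradiated and 9.54 and 9.87 CPM in unirradiated libraries. B and plasma cell markers summed to 7.70 and 7.42 CPM in irradiated and 8.05 and 6.96 CPM in unirradiated libraries, with 1 higher and 2 lower of 3 tested. No listed marker was at 0 in all libraries. The part of cell composition in the levels of the ribosomal protein genes was not tested. The labels name no batch, and a batch shared by the libraries of a group and the radiation itself cannot be told apart.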

How the data were processed

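The authors deposited whole-number counts per gene for 4 poly(A)-selected libraries prepared without strand marking, so antisense and overlapping partners cannot be separated. The submitters' processing notes name mm10, STAR 2.5, HTSeq 0.6.1 and DESeq2. The treatment of multiply mapped reads and the gene annotation were not given in the sources used here. A quasi-likelihood F-test of edgeR 4.0.16 was run on TMM-scaled counts of genes kept by filterByExpr, with Benjamini-Hochberg adjustment over 15961 genes at 0.05 and 2 residual and 60.0 prior degrees of freedom, and the code was tested on simulated data. Standard errors are log2 fold change sizes divided by the root of F. Alternatives were other scalings, filters, DESeq2 1.42.0, a replicate block, length and GC trends and leaving out each library.

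Coding lengths, 50-base windows and the transcript lengths behind TPM came from GENCODE M21, in which 80 of the 82 members have the deposited coordinates, and start windows from RefSeq (GRCm38.p6). Libraries A and B of a group differed by 2.14 (irradiated) and 2.11 (unirradiated) times the median chi-square of counting alone and were kept as replicates. Named members are the 6 highest by TPM, the 8 largest falls without overlap, paralogs with their partners, members missing the threshold and 14 with known other roles, and for each pathway list the up to 4 called genes of largest change that average 1 CPM or more. Members and lists were chosen with earlier results of these data known. Of the ribosome components under other symbols, 1 is not reported here by name.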

Additional observations from a re-analysis of the deposited data

How the results depend on the processing

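The median (-0.45) and the share difference (-1.22 percentage points) stayed negative under all alternatives run, while the 77 lower and 0 higher calls varied. The median was -0.39 without a filter, with 1 member higher. It was -0.23 with the gene length and GC trend removed, with 7 higher. Tested against 1.5-fold, 13 members were lower. Leaving out each library gave 75 to 77 lower, 0 to 1 higher (1 without irradiated A, Rpl22l1), a median of -0.50 to -0.40 and a share difference of -1.36 to -1.08 points. The share difference was -1.94 points over nuclear protein-coding counts. Chosen after seeing the data, library totals gave a median of -0.32 with 1 higher, the coding length and GC trend -0.29 with 1 higher, TPM -0.035 and TPM without mitochondrial transcripts -0.17.

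Single members changed sign in these fits. With the length and GC trend removed Rplp1 was 0.15, Rps2 0.16, Rpl24 0.087, Rps10 0.031 and Rpl38 0.034. With the coding length and GC trend removed Rpl41 was 0.061, Rps2 0.0013, Rpl39 0.0065 and Rps10 0.12. Rps2 was 0.037 with library totals, and Rps10 was 0.0091 without unirradiated B. Over 33 named members and 16 alternative fits, 475 values kept direction and side of the threshold, 37 lost the call, 5 gained it and 11 changed sign. Of the lost calls, 22 came from the test against 1.5-fold, which asks for a larger change than the main test. The tally does not include TPM. In TPM the ratio of group means was below 1 for 50 members and above 1 for 30. Rps2, Rpsa, Rpl3, Rpl5 and Rplp0 were among those above 1. The cause was not tested.

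The other lists moved more. Of components under other symbols, 2 were lower without a filter, 2 higher with the length and GC trend removed, 0 higher and 1 lower against 1.5-fold, 2 higher and 2 lower with library totals, and 1 higher and 2 to 3 lower with a library left out. Of assembly factors, 2 were higher and 1 lower against 1.5-fold, 8 lower with library totals, 13 higher and 22 lower with the coding length and GC trend removed, and 25 to 30 higher and 10 to 13 lower with a library left out. Of RNA polymerase I genes, 3 were higher with upper-quartile scaling, 3 lower without a filter, 3 higher and 3 lower with DESeq2, 3 higher with the length and GC trend removed, 0 in either direction against 1.5-fold, 3 lower with library totals, 1 higher with the coding length and GC trend removed, and 3 to 5 higher and 3 to 4 lower with a library left out. Of control genes, 3 were higher with the length and GC trend removed, 0 higher and 2 lower against 1.5-fold, 14 higher with library totals, 5 higher with the coding length and GC trend removed, and 8 to 9 higher and 9 to 10 lower with a library left out.

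With the replicate letter as a block, 77 members were lower and no call of a named member changed. The letters were not shown to pair the samples, since the A minus B differences of the 2 groups correlated at 0.0125 across genes, and only 2 pairs exist. Leaving out a library uses the other group's spread for the remaining one. Low counts limit Rpl3l, Rpl36al, Rpl24, Rps10, Rpl39l and Rpl10l, and reads that match several copies limit the level of any single member. Exons of another annotated gene cover 63.1% of Rpl36al, 71.5% of Rpl24 and 91.6% of Rps10. Reads lost to that overlap were not measured, so their low counts need not mean low expression.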
